A study of Mus musculus with 2 samples.

Results

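The melanocortin receptor gene Mc1r, the cAMP-responsive transcription factor genes Creb1 and Crem, the salt-inducible kinase genes Sik1, Sik2 and Sik3, and the CREB coactivator genes Crtc1, Crtc2 and Crtc3 were followed in single B16 F10 cells of low and high pigment. These 9 genes were chosen by name as parts of the cAMP route to pigment, each matched 1 row among the 32285 genes of the count matrix, and each is set beside Mitf. B16 F10 is a mouse melanoma line, here grown at 100 cells per cm2 for 7 days in DMEM rich in glucose that held 10% fetal bovine serum. After trypsin treatment the cells were sorted on side scatter, the study's measure of pigment, to give cells of low pigment and cells of high pigment. Each fraction gave 1 library, made with 10x chemistry v3.1 for 3' ends, and the labels name no other treatment or genotype. The low pigment library held 1900 cells and 32437194 counted molecules (UMIs), and the high pigment library 2136 cells and 28848691 UMIs.

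In pigment cells, melanocortin peptides bind the receptor MC1R, which acts through a stimulatory G protein and adenylyl cyclase to raise cAMP. Protein kinase A then phosphorylates CREB, and it also restrains the salt-inducible kinases. When these kinases are active they keep the CRTC coactivators phosphorylated in the cytoplasm, bound by 14-3-3 proteins. When they are restrained, CRTC enters the nucleus, joins CREB on cAMP response elements (CREs) and raises transcription of Mitf, whose protein drives the pigment enzyme genes. Sik1 and Crem are themselves classical CREB targets and provide negative feedback.

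The element that ties this route to Mitf is shown first, beside the promoter of a strongly differing CREB target and that of Mc1r. Sequences are RefSeq promoters on GRCm38.p6, each from 250 bases before to 50 bases after a listed start. The table held entries for 6 of the 9 genes (Mc1r, Creb1, Sik2, Sik3, Crtc1 and Crtc3) and 3 starts for Mitf. The most downstream Mitf start is at chr6:97991533-97991832 (+), the Dusp1 promoter at chr17:26508423-26508722 (−) and the Mc1r promoter at chr8:123406832-123407131 (+). Capitals mark the full CRE, TGACGTCA, in Mitf and Dusp1, and CATGTG or its reverse complement CACATG, the core of the element that MITF binds, in Mc1r.
Mitf: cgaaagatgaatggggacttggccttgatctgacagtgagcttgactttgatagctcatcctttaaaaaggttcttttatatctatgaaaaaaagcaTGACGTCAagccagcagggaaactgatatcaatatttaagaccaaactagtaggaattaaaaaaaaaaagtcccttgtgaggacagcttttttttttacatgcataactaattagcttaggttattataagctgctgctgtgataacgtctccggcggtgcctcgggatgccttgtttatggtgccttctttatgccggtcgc
Dusp1: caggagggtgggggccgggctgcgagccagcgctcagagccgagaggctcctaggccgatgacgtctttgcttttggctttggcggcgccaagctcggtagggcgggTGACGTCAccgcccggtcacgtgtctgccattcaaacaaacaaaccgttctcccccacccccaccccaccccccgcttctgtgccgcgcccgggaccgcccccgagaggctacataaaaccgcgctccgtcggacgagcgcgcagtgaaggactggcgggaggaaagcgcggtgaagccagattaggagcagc
Mc1r: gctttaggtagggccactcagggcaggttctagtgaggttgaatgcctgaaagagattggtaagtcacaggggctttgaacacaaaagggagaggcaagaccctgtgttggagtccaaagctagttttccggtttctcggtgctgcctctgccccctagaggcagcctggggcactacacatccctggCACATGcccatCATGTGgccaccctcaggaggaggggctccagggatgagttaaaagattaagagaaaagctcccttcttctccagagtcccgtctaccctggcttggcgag

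The full CRE begins at position −153 relative to the Mitf start shown and at −143 relative to the Dusp1 start. It was found, on either strand, in 1.79% of 32851 promoters of this length, and in none of the 6 member promoters of the table. The windows of the Mitf starts further upstream held none either, and counts at the 3' end cannot tell RNA of these starts apart. The shorter CRE core TGACG (or CGTCA), which is contained in the full CRE, was found in 20.8% of all promoters, and among members in those of Sik2 and Sik3. CATGTG or CACATG was found in 14.2% of all promoters and among members only in that of Mc1r, at −62 and −51. A match of letters is a description of the window and not a measured binding site.

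Between the libraries, Mitf differed in one direction and Mc1r, Sik1 and Sik2 in the other. Mitf had 2.29-fold more RNA, as a share of UMIs, in the high pigment library, while Sik1 had 5.93-fold less and the receptor gene Mc1r 1.43-fold less. Creb1, Crem, Sik3 and Crtc3 had ratios between 1.04 and 1.16. All levels below are counts per 1000000 UMIs of a library (CPM), and each ratio is high over low pigment. With 1 library per group there is no test between groups: intervals are exact 95% intervals for counting error only, and calls go by size: a gene with a mean CPM of at least 10 was called higher at 25% above and lower at 20% below its low pigment level. Of the 9 genes, 7 passed this level, and Crtc1 and Crtc2 did not. Of these 7, 3 were called lower (Mc1r, Sik1 and Sik2) and 0 higher, where 23.4% of all 7849 measured genes were called lower and 10.9% higher. This split depends on scaling: with TMM factors 14.1% of genes were lower and 19.3% higher, and of the members Crem and Crtc3 were then called higher while the same 3 were lower. The median log2 ratio was −0.16 over the 9 genes, 0.06 over the 7 and −0.08 over all measured genes.

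**Figure D1:**
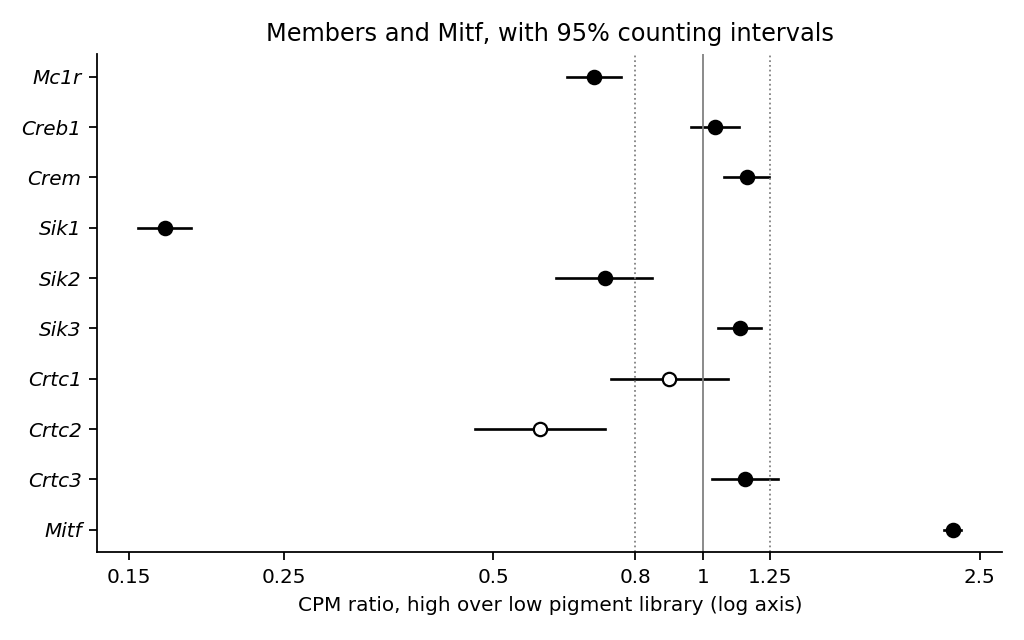
CPM ratio of the high over the low pigment library for the 9 genes and Mitf on a log axis, with exact 95% counting intervals as bars; filled points have a mean CPM of at least 10, open points do not, and dotted lines mark the limits of a call. Sik1 lies far to the left at 0.169, Mitf to the right at 2.29, and the interval of Creb1 (0.961–1.13) holds 1.

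Cells of the high pigment library had fewer UMIs, with a median of 12557 per cell against 16019.5. Less RNA per cell and shallower sequencing or capture cannot be told apart here, and a share of UMIs is not RNA per cell. The median percent of mitochondrial UMIs was 5.07 in the high and 5.62 in the low pigment library. Melanocyte markers (Mlana, Pmel, Dct, Tyrp1, Tyr and Sox10) summed to 11022 CPM in low and 14226 CPM in high pigment cells. Fibroblast, leukocyte, keratinocyte and erythroid markers each summed to at most 2.15 CPM in either library, with Adgre1, Krt1, Krt10 and Hbb-bs at 0 in both. Of 5 endothelial markers only Pecam1 was above 3 UMIs (726 and 81 UMIs) and Emcn was at 0, and Mbp, fixed as a Schwann marker, was at 154 CPM in the low and at 101 CPM in the high pigment library. No barcode among the cells analysed was shared between the libraries.

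Mc1r (ENSMUSG00000074037, mm10 chromosome 8, 123407107 to 123410744, plus strand) encodes the receptor at the head of the route. It had 1289 UMIs in the low and 799 in the high pigment library, or 39.7 CPM (37.6–42.0) against 27.7 CPM (25.8–29.7). The ratio was 0.697 (0.637–0.762), and 10.2% of measured genes had a lower one. In UMIs per cell the means were 0.678 and 0.374. After every cell was thinned to 7500 UMIs, which left out none, an Mc1r UMI was seen in 23.7% (21.8–25.7) of cells in the low and 18.5% (16.9–20.2) in the high pigment library, against 42.9% and 28.7% unthinned. The line has no cell type that should lack these genes, so the share that free RNA gives was not measured. Tubb3 begins 680 bases beyond Mc1r on the same strand, with 1050 and 408 UMIs, and the sources used here do not say how reads between the pair were assigned.

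Sik1 (ENSMUSG00000024042, chromosome 17, 31844250 to 31855804, minus strand) encodes a kinase that phosphorylates CRTC and is induced by cAMP. It had 3958 UMIs in the low and 594 in the high pigment library, or 122 CPM (118–126) against 20.6 CPM (19.0–22.3). The 5.93-fold lower level (5.44–6.47) was the 15th lowest ratio of the 7849 measured genes. After thinning, a Sik1 UMI was seen in 54.3% (52.0–56.5) of cells in the low and 14% (12.6–15.5) in the high pigment library, against 77.8% and 20.3% unthinned. Cells with 4 or more thinned UMIs numbered 59 in the low and 6 in the high pigment library. In mean UMIs per cell the levels were 2.08 and 0.278.

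The other 2 kinases of the family had smaller differences in CPM, in opposite directions. Sik2 (ENSMUSG00000037112, chromosome 9, 50892801 to 51009073, minus strand) had 403 against 259 UMIs, or 12.4 CPM (11.2–13.7) against 8.98 CPM (7.92–10.1), a ratio of 0.723 (0.616–0.847). The gene Ppp2r1b overlaps Sik2 on the opposite strand. Sik3 (ENSMUSG00000034135, chromosome 9, 46012820 to 46224194, plus strand) had 1552 against 1559 UMIs, or 47.8 CPM (45.5–50.3) against 54.0 CPM (51.4–56.8), a ratio of 1.13 (1.05–1.21) that was not called. SIK2 is the kinase best known for holding back Mitf in pigment cells, and SIK3 is broadly expressed. Of the family, Sik1 alone differed by more than 1.5-fold between these libraries.

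CREB1 is the constitutive activator on CREs, and Crem gives both activators and the inducible repressor ICER, which counts at the 3' end cannot tell apart. Creb1 (ENSMUSG00000025958, chromosome 1, 64532645 to 64604548, plus strand) had 39.5 CPM (37.4–41.7) in the low and 41.1 CPM (38.8–43.6) in the high pigment library. Its ratio of 1.04 had an interval that held 1 (0.961–1.13), and it was 0.983 in thinned cells. Crem (ENSMUSG00000063889, chromosome 18, 3266048 to 3337748, minus strand) had 42.6 CPM (40.4–44.9) against 49.3 CPM (46.8–51.9). Its ratio was 1.16, and its interval lay between 1.07 and the size limit of a call. Crem thus had a ratio above 1 where Sik1, which CREB also induces, had one far below it.

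The CRTC coactivators bind CREB once they reach the nucleus. Crtc3 (ENSMUSG00000030527, chromosome 7, 80586627 to 80688877, minus strand), the member best known in pigment cells, had 655 against 671 UMIs, or 20.2 CPM (18.7–21.8) against 23.3 CPM (21.5–25.1), a ratio of 1.15 (1.03–1.28). Crtc2 (ENSMUSG00000027936, chromosome 3, 90254163 to 90264125, plus strand) had 256 against 133 UMIs, or 7.89 CPM (6.95–8.92) against 4.61 CPM (3.86–5.46). Its level was 1.71-fold lower (1.38–2.13) in the high pigment library, but its mean CPM of 6.25 was under the minimum for a call. Crtc1 (ENSMUSG00000003575, chromosome 8, 70382355 to 70439579, minus strand) had 241 against 192 UMIs, or 7.43 CPM (6.52–8.43) against 6.66 CPM (5.75–7.67), and its interval held 1 (0.737–1.09).

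Mitf (ENSMUSG00000035158, chromosome 6, 97807052 to 98021349, plus strand), the end of the route, had 7178 UMIs in the low and 14595 in the high pigment library, or 221 CPM (216–226) against 506 CPM (498–514). Its ratio of 2.29 (2.22–2.35) was the 23rd highest of the measured genes. After thinning, a Mitf UMI was seen in 71.4% (69.3–73.4) of cells in the low and 90.4% (89.1–91.7) in the high pigment library, against 87.2% and 95.6% unthinned. Unlike Mc1r and Sik1, Mitf was higher in the high pigment library also per cell, with 6.83 against 3.78 UMIs.

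The libraries differed in cell cycle phase. By the authors' deposited calls, 39.4% of low pigment and 33.1% of high pigment cells were in G1, 37.1% and 22.4% in S, and 23.5% and 44.4% in G2M. Inside both libraries Mc1r, Sik1 and Crem were lower in S and G2M than in G1, with intervals that left out 1. The comparison was therefore repeated within each phase.

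Among low pigment cells, Mc1r was at 51.6 CPM in G1, 37.9 in S and 28.2 in G2M, and among high pigment cells at 33.6, 26.9 and 24.4 CPM. G1 had the highest level in both libraries. G2M over G1 was 0.546 (0.469–0.634) in the low and 0.727 (0.621–0.853) in the high pigment library, where the median gene stood at 1.01 and 1.03. Between libraries Mc1r was 1.54-fold lower (1.33–1.78) in G1 and 1.41-fold lower (1.18–1.69) in S of the high pigment library. In G2M it was 1.15-fold lower, with an interval (0.978–1.36) that held no difference. In the order of the 6 levels low pigment G1 stood alone at the top, low pigment S and high pigment G1 followed without a difference beyond counting error, and low pigment G2M lay below these, with no difference beyond counting error from it to high pigment S or from that to high pigment G2M.

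Sik1 was lower in the high pigment library in every phase, and the intervals of the libraries did not overlap. It was at 150.0 CPM in G1, 103 in S and 115 in G2M of the low pigment library, and at 27.5, 19.8 and 16.7 CPM in the same phases of the high pigment library. The level there was 5.46-fold lower (4.77–6.29) in G1, 5.19-fold lower (4.30–6.31) in S and 6.87-fold lower (5.96–7.95) in G2M. Mitf showed the reverse order of libraries, with 260, 177 and 236 CPM in G1, S and G2M of the low pigment library and 519, 429 and 531 CPM in the high pigment library. Its ratio was 2.0 (1.91–2.10) in G1, 2.42 (2.29–2.56) in S and 2.25 (2.15–2.37) in G2M.

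Crem was highest in G1 in the low pigment library, with 62.0 CPM in G1, 33.9 in S and 31.5 in G2M, where S over G1 was 0.546 (0.483–0.618). In the high pigment library it was at 63.7, 53.8 and 38.5 CPM, and S over G1 was 0.846 (0.735–0.971). The ratio between libraries was 1.03 (0.916–1.15) in G1, 1.59 (1.37–1.84) in S and 1.22 (1.06–1.42) in G2M. The intervals of G1 and S did not overlap, but with 1 library each this difference between phases was not tested.

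Of the other genes, Sik3 in S had 41.5 CPM in the low and 54.0 CPM in the high pigment library, a ratio of 1.30 (1.13–1.5), against 0.987 in G1 and 1.08 in G2M. Sik2 had its smallest ratio in G1, at 15 against 9.69 CPM (0.645, 0.490–0.845), and intervals that held 1 in S and G2M. Creb1 had ratios of 0.887 in G1, 1.08 in S and 1.14 in G2M, each with an interval that held 1. Crtc3 ran from 17.9 to 24.9 CPM over the 6 levels and Crtc1 from 5.77 to 7.86 CPM, with no neighbours in either order separated by counting error. The ends of the Crtc3 order did not overlap, at 17.9 CPM (15.7–20.5) in low pigment S and 24.9 CPM (22.4–27.7) in high pigment G2M. In the low pigment library Crtc3 in S over G1 was 0.822 (0.681–0.991). The 3 low pigment levels of Crtc2 (7.43 to 8.29 CPM) lay above the 3 high pigment levels (3.96 to 5.03 CPM).

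By size, 3 of 7 measured members were lower and 0 higher in G1 (25.9% and 11.8% of all genes), again Mc1r, Sik1 and Sik2. In S, 2 of 7 were lower (Mc1r and Sik1) and 2 higher (Crem and Sik3), with 22.2% and 13.6% of all genes. In G2M, 1 of 6 was lower (Sik1) and 0 higher, with 26.1% and 11.1% of all genes.

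**Figure D2:**
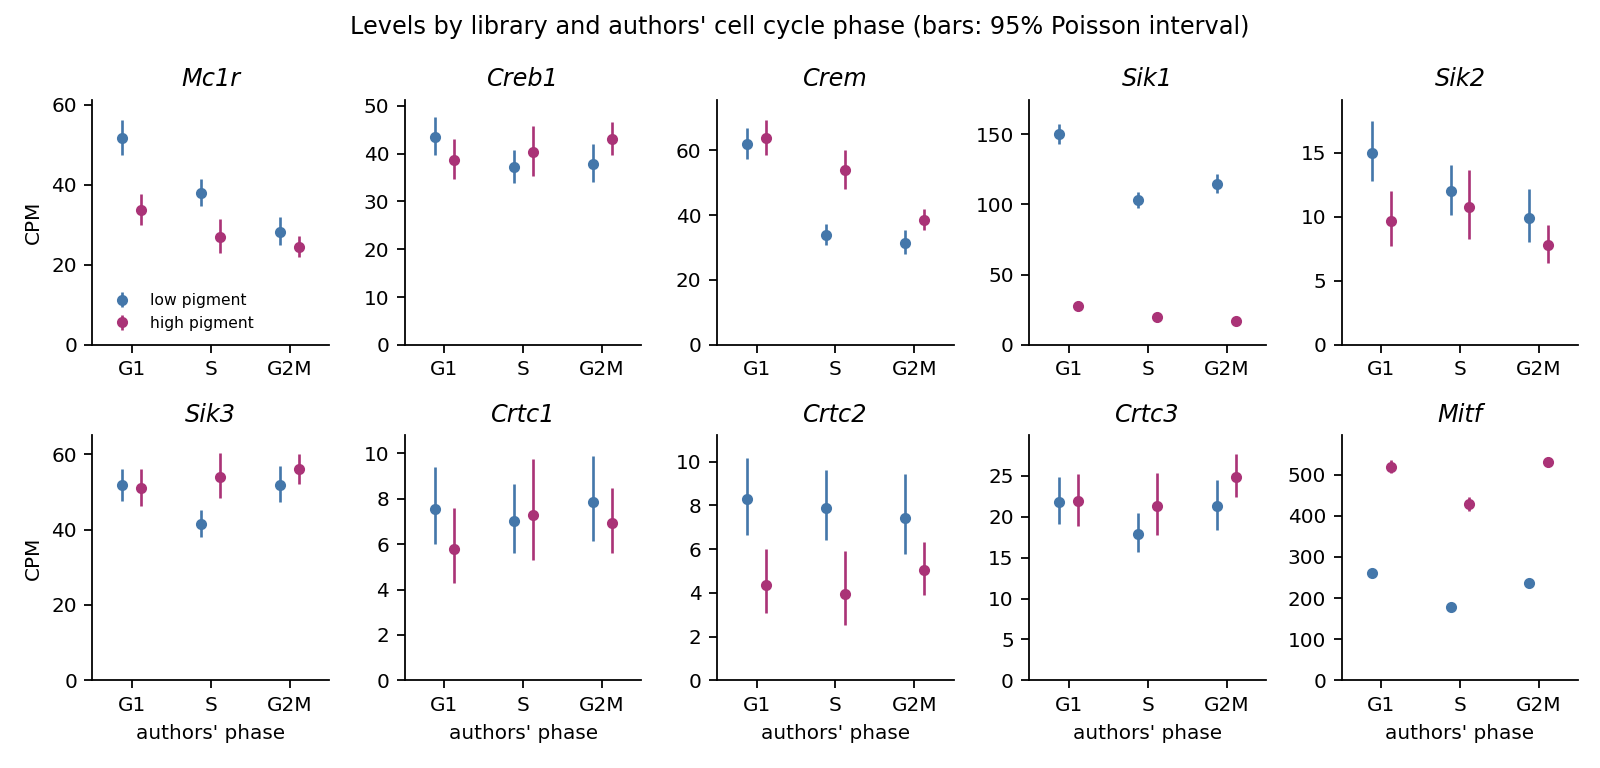
CPM of the 9 genes and Mitf in cells summed by library (blue low pigment, purple high pigment) and by the authors' cell cycle phase, with exact 95% Poisson intervals as bars and each axis starting at 0. All 3 Sik1 levels of the high pigment library (16.7 to 27.5 CPM) lie below all 3 of the low pigment library (103 to 150.0 CPM), and Mc1r and Crem of the low pigment library are highest in G1.

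The authors' 4 clusters nearly follow the libraries: clusters 1 and 2 held 1023 and 822 low pigment cells beside 48 and 45 high pigment cells, and clusters 0 and 3 held 1520 and 523 high pigment cells beside 36 and 19 low pigment cells. Clusters 1 and 3 were mostly G1 (70.3% and 89.1% of their main library's cells). These clusters were made from the same genes, so levels in them are a description, given for the library that makes up each cluster. Library and cluster can hardly be told apart, but within a library the clusters can be compared.

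In the high pigment library, Mitf, Sik1, Crem and Mc1r were all higher in the mostly G1 cluster 3 than in the cycling cluster 0. Mitf was at 667 CPM (646–690) in cluster 3 and 473 CPM (464–482) in cluster 0. Sik1 was at 35.0 CPM (30.2–40.4) and 14.3 CPM (12.8–16). Crem was at 72.8 CPM (65.8–80.4) and 44.3 CPM (41.6–47.1), and Mc1r at 34.6 CPM (29.8–40.0) and 25.8 CPM (23.8–28.0). Among G1 cells alone, those of cluster 3 had 33.5 CPM of Sik1 and 654 CPM of Mitf, and those of cluster 0 had 15 and 352 CPM. Crem and Mc1r were at 76.7 and 36.4 CPM in the former and at 48.0 and 28.3 CPM in the latter. Among G2M cells, of which cluster 3 held 54, Sik1 (43.6 against 13.6 CPM) and Mitf (777 against 525 CPM) were again higher in cluster 3. Crem (34.1 against 39.1 CPM) and Mc1r (19.0 against 25.1 CPM) had smaller values there, but these 54 cells held 527386 UMIs of all genes. No intervals were made for levels of a cluster within a phase, so a lower level beyond counting error is not shown.

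The low pigment library showed the same arrangement between its mostly G1 cluster 1 and its cycling cluster 2. Mitf was at 249 CPM (241–257) in cluster 1 and 190.0 CPM (183–197) in cluster 2, and Sik1 at 143 CPM (137–149) and 103 CPM (98.4–108). Crem was at 56.4 CPM (52.7–60.2) and 28.8 CPM (26.3–31.6), and Mc1r at 46.6 CPM (43.3–50.2) and 33.0 CPM (30.2–35.9). Cluster 2 held 3 low pigment G1 cells, so G1 cells were not compared here. In S, Mitf (204 against 163 CPM), Sik1 (123 against 96.2), Crem (47.7 against 29.0) and Mc1r (44.8 against 35.5) were higher in cluster 1. In G2M, Mitf (272 against 224 CPM), Sik1 (125 against 112) and Crem (41.2 against 28.5) were higher there. Mc1r in G2M was at 24.7 CPM in cluster 1 and 29.6 in cluster 2, again without intervals. Sik1 and Mitf thus differed in the same direction between the clusters of each library and in opposite directions between the libraries. Creb1 was between 35.9 and 43.4 CPM in all 4 clusters, Sik3 between 45.9 and 56.1, Crtc3 between 18.5 and 24.6, Sik2 between 8.43 and 13.2, Crtc1 between 6.47 and 8.09 and Crtc2 between 4.28 and 8.53 CPM.

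**Figure D3:**
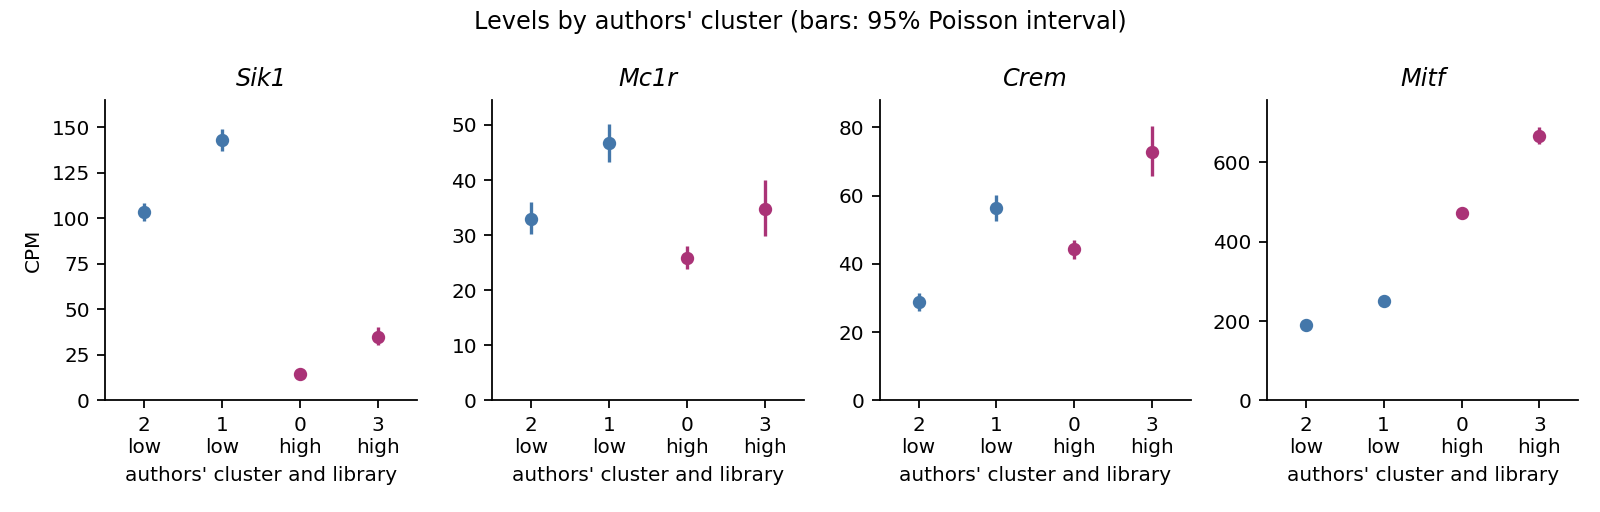
CPM of Sik1, Mc1r, Crem and Mitf in the authors' 4 clusters, each from the library that makes up most of the cluster (blue low pigment, purple high pigment), with exact 95% Poisson intervals as bars. Within each library the mostly G1 cluster (1 or 3) lies above the cycling one (2 or 0) in all 4 panels, while Sik1 is lower and Mitf higher in the high pigment clusters.

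Single cells of 1 library share the sort, so they show whether a gene moves with Mitf when the pigment gate is held fixed. Cells thinned to 7500 UMIs were ordered by their Mitf UMIs and divided into 4 equal groups per library (475 low pigment and 534 high pigment cells each). Mitf UMIs are small whole numbers, and 144 to 551 cells were tied at each border, so the groups are ranges and not cell types. Sik1 was at 107, 115, 131 and 145 CPM from the lowest to the highest Mitf group of the low pigment library, highest over lowest 1.36 (1.19–1.56). In the high pigment library it was at 21.7, 17.2, 25.2 and 31.5 CPM, highest over lowest 1.45 (1.09–1.93). The Sik1 level of the lowest Mitf group of low pigment cells was above that of every high pigment group.

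Crem was at 41.3, 38.5, 42.1 and 60.6 CPM in the Mitf groups of the low pigment library (highest over lowest 1.47, 1.19–1.82) and at 50.2, 43.7, 52.4 and 57.7 CPM in the high pigment library (1.15, 0.947–1.40). Mc1r was at 35.4, 37.6, 45.5 and 41.0 CPM and at 28.0, 26.7, 31.2 and 29.5 CPM, and in both libraries the interval of highest over lowest held 1. For highest over lowest Mitf, Sik2 had 1.44 (0.962–2.18) and 1.70 (1.06–2.76), and Sik3 1.29 (1.04–1.61) and 1.13 (0.930–1.37), in the low and the high pigment library. Across cells the rank correlation of Sik1 with Mitf was 0.0858 in the low and 0.0503 in the high pigment library.

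The cells were then split by depth at the library's median, and separately by phase, a choice made after the data were seen. Sik1 in the highest over the lowest Mitf group was 1.54 (1.27–1.86) and 1.19 (0.985–1.44) in the low pigment cells with fewer and with more UMIs than their median, and 1.37 (0.960–1.96) and 1.53 (0.947–2.52) in the high pigment cells. By phase it was 1.24 (1.02–1.52) in G1, 1.36 (1.06–1.75) in S and 1.30 (0.979–1.73) in G2M of the low pigment library. In the high pigment library it was 1.58 (1.03–2.44) in G1, 0.543 (0.262–1.08) in S and 2.05 (1.22–3.54) in G2M. By phase, the Sik1 intervals of low pigment G2M and high pigment S held 1, and high pigment S alone had a value below 1. By depth, all Sik1 intervals held 1 except that of low pigment cells with fewer UMIs. Crem in the low pigment library was 1.57 (1.17–2.12) in G1, 0.924 (0.602–1.41) in S and 1.16 (0.669–2.02) in G2M. In the high pigment library Crem was 1.37 (1.02–1.86) in G1, 1.03 (0.693–1.52) in S and 1.02 (0.713–1.46) in G2M.

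Sik1 also went with early response genes from cell to cell. The summed level of 11 such genes (Fos, Fosb, Jun, Junb, Egr1, Ier2, Dusp1, Btg2, Nr4a1, Atf3 and Zfp36), which respond within minutes to growth factors, cAMP or handling, was used to order the cells. From the lowest to the highest group Sik1 was at 92.1, 118, 138 and 151 CPM in the low pigment library (highest over lowest 1.64, 1.42–1.88). In the high pigment library it was at 7.99, 13.2, 24.0 and 50.4 CPM (6.31, 4.33–9.48). The lowest low pigment group had 967 CPM of early response genes, and the highest high pigment group 1060 CPM. These are opposite ends of the libraries, picked on the same counts that give their level. They are therefore not matched for early response genes, and their Sik1 levels (92.1 and 50.4 CPM) are a description only. Sik2 was at 11.5 CPM in the lowest and 17.7 CPM in the highest group of the low pigment library (1.54, 1.02–2.34). In the high pigment library its ratio was 0.953, with an interval that held 1. Mc1r, Creb1, Crem, Sik3, Crtc1, Crtc2 and Crtc3 each had an interval of highest over lowest that held 1 in both libraries. For Mitf, highest over lowest was 0.987 (0.896–1.09) in the low and 0.927 (0.871–0.986) in the high pigment library. Over the 4 groups Mitf ran from 212 to 237 CPM in the low and from 482 to 545 CPM in the high pigment library. The rank correlation of Sik1 with the early response sum over cells was 0.153 in the low and 0.229 in the high pigment library.

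Sik1 also moved with UMIs per cell, and more so in the high pigment library. In that library Sik1 was at 37.5, 24.5, 17.7 and 16 CPM from the group of cells with the fewest to that with the most UMIs, and Mitf at 606, 522, 511 and 453 CPM. In the low pigment library Sik1 was at 131, 128, 127 and 112 CPM. Most over fewest UMIs was 0.854 (0.745–0.978) for Sik1 there and 0.427 (0.313–0.575) in the high pigment library. The group with the most over that with the fewest UMIs was 0.661 (0.520–0.838) and 0.673 (0.552–0.819) for Crem in the low and the high pigment library, and 0.673 (0.526–0.857) and 0.943 (0.725–1.23) for Mc1r. By percent of mitochondrial UMIs Sik1 was at 127, 119, 125 and 126 CPM in the low and at 15.2, 26.2, 27.7 and 26.5 CPM in the high pigment library. What part UMIs per cell, early response genes and mitochondrial share have in the difference between libraries was not tested. In cells of 10000 to 20000 UMIs the Sik1 ratio was 0.143, and over all cells 0.169.

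**Figure D4:**
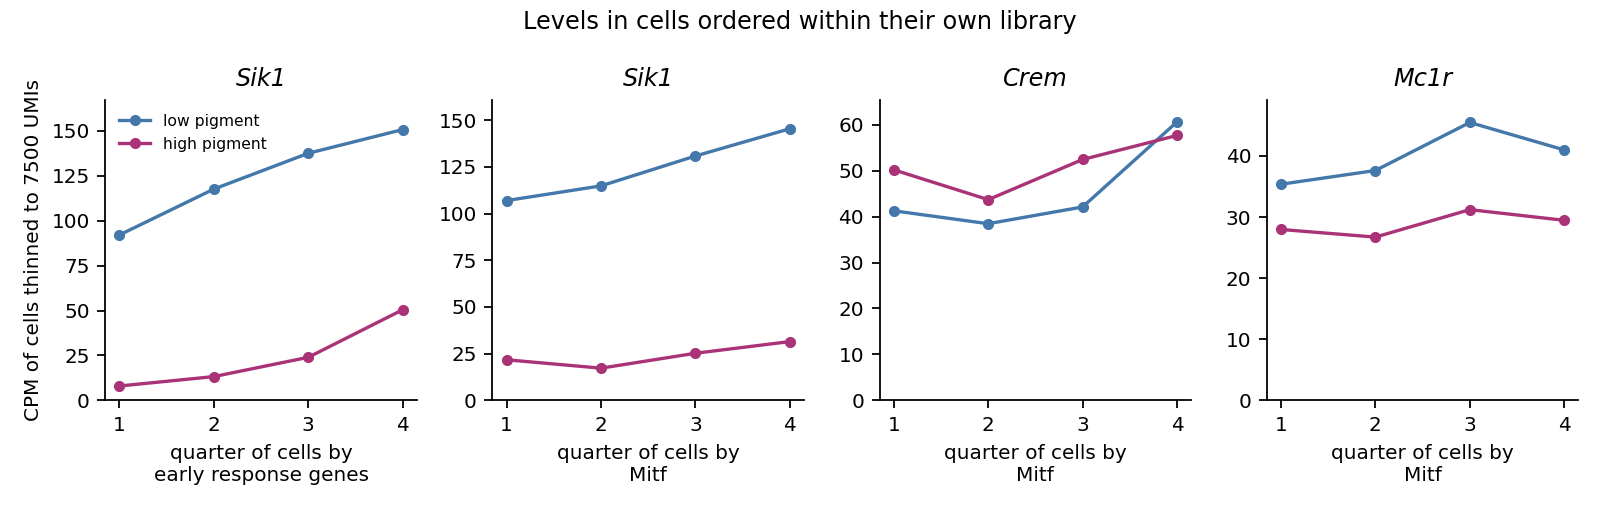
CPM in cells thinned to 7500 UMIs and divided, within each library (blue low pigment, purple high pigment), into 4 equal groups from low to high by summed early response genes (first panel) or by Mitf (other panels). Sik1 is higher towards the right in both libraries for both orders, apart from the second Mitf group of the high pigment library, while its 2 lines stay apart.

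The genes whose level was most like that of Sik1, Mc1r, Crem and Mitf were found over 10 groups of at least 50 cells (library by phase by cluster), as the Pearson correlation of log2(CPM + 1) among 3047 genes of at least 50 CPM. These groups share 2 libraries. For Sik1 and Mitf, a gene that differs between the libraries in the same direction can therefore score high from that alone. For Sik1 they included Jun (0.996), Mknk2 (0.990), 5031425E22Rik (0.989) and Tob2 (0.984), and 110 genes were above 0.9. For Mitf they were Gigyf2 (0.989), Bmpr2 (0.984), Mlf2 (0.983), Son (0.981) and Crebbp (0.980), with 78 above 0.9. For Mc1r, where 5 genes were above 0.9, they included Pla2g12a (0.931), Rps19 (0.921), Cope (0.916) and Zfp637 (0.906). For Crem they were Ndufs4 (0.955), Zbtb38 (0.929), Atp6v0c (0.907), Mdh1 (0.90) and Arpc3 (0.883).

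The genes around the 9 members were read in 10 lists, each against the same 23.4% lower and 10.9% higher of all measured genes. Among genes of cAMP production, 8 of 19 were measured, 2 higher and 1 lower. The adenylyl cyclase gene Adcy7 had 8.60 against 17.9 CPM (2.08, 1.79–2.41), and Mrap, an accessory protein gene of melanocortin receptors, 15.9 against 20.3 CPM (1.28, 1.13–1.44). Mgrn1, a ubiquitin ligase gene whose loss darkens mouse fur, was 1.35-fold lower. Atrn, Adcy3 and Gnas, the stimulatory G protein subunit gene, had ratios of 1.02, 0.823 and 0.873. Among genes that break down or export cAMP, 6 of 17 were measured, 2 higher and 2 lower, with the phosphodiesterase genes pulling apart. Pde4d, which MITF is known to induce in melanocytes, had 24.5 against 38.9 CPM (1.59, 1.45–1.74). Pde4b, a CREB-induced gene, had 32.2 against 15.5 CPM, 2.08-fold lower (1.86–2.33).

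Of the remaining measured genes of this list, Pde7a had a ratio of 1.31, Pde11a one of 0.656, Pde10a one of 0.876 and the exporter gene Abcc4 one of 0.815. Of the effectors and anchors of cAMP, 17 of 19 were measured, 4 lower and 0 higher. Akap12, a kinase anchor gene, was 2.07-fold lower (23.4 against 11.3 CPM), the protein kinase A inhibitor gene Pkia 1.66-fold lower and the cAMP-gated exchange factor gene Rapgef3 1.39-fold lower. Prkar2a, Pkig and Akap13 had the largest ratios, at 1.22, 1.16 and 1.15. The catalytic subunit genes Prkaca and Prkacb had ratios of 0.955 and 0.808, named here after their values were seen, as the kinase itself.

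The CREB family and its acetyltransferases had 10 of 12 genes measured, 1 higher and 2 lower. Crebbp, which encodes the acetyltransferase CREB recruits, had 69.2 against 99.6 CPM (1.44, 1.36–1.52), and Ep300 and Creb3l2 had ratios of 1.22 and 1.08. Creb5 was 1.96-fold lower (15.8 against 8.08 CPM) and Crebzf 1.38-fold lower, and Crebrf had a ratio of 0.805. The SIK activators and 14-3-3 genes had 9 of 11 measured, with Ywhah alone lower (1.36-fold) and 0 higher. Stk11, which encodes the kinase that activates the SIK family, had a ratio of 1.13, Ywhaz 1.14, Ywhab 1.13, Cab39l 0.887 and Ywhaq 0.811. The phosphatase genes that can release CRTC had 8 of 9 measured, with the calcineurin regulator Rcan1 alone lower (17.2 against 11.5 CPM) and 0 higher. Ppp3ca, Ppp2ca, Ppp3cb, Ppp2r2a and Ppp3r1 had ratios of 1.21, 1.13, 0.979, 0.935 and 0.833.

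Kinases related to the SIK family had 6 of 11 measured and 1 lower, Prkaa2 (0.799), with Mark3, Mark2, Snrk, Prkaa1 and Mark4 at ratios of 1.04, 0.972, 0.972, 0.921 and 0.820. Both measured class IIa histone deacetylase genes of 4, Hdac5 and Hdac4, which encode further SIK substrates, were lower (1.33-fold and 1.34-fold). The medians of these first 8 lists ranged from −0.42 for this pair to 0.06 for the CREB family, on the log2 scale, beside −0.08 for all measured genes.

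Known CREB target genes were mostly lower in the high pigment library. Of 20 genes, 16 were measured, 15 were lower and 1 was higher, and the median of their log2 ratios was −1.86. The list holds many early response genes whose lower level was already known when it was drawn up, so its count is not independent evidence of direction. Dusp1, a phosphatase gene of MAP kinases, had 169 against 21.3 CPM, and Fosb and Fos were 6.86-fold and 6.28-fold lower. The nuclear receptor genes Nr4a1, Nr4a2 and Nr4a3 are named as a family after their values were seen: they were 5.05-fold, 4.35-fold and 1.79-fold lower. The members nearest to no change were Sgk1 (1.38-fold lower) and Gem (1.76-fold lower). Ppargc1a, a coactivator gene of mitochondrial biogenesis that MITF also induces, was the exception, with 101 against 234 CPM. The full CRE was found in a promoter of 3 of the 17 targets with an entry (Areg, Btg2 and Dusp1), against 2.03% of genes. The core TGACG was found in a promoter of 16 of the 17 targets with an entry in the table, against 23.0% of all 27025 genes with one, but such sites are part of why genes are known as CREB targets. The promoter table thus held this core for lower genes such as Dusp1 and for the higher Ppargc1a alike.

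MITF target genes differed the other way. All 14 were measured, 7 were higher and 0 lower, and the median of their log2 ratios was 0.37. The survival gene Bcl2 had 29.3 against 45.4 CPM (1.55), the receptor kinase gene Met 97.1 against 146 CPM (1.5) and Rab27a, which moves melanosomes, a ratio of 1.43. The pigment genes Tyr, Slc24a5 and Pmel had the smallest ratios, at 0.971, 0.899 and 0.898. CATGTG or CACATG was found in a promoter of 5 of the 10 targets with an entry (Dct, Slc24a5, Trpm1, Tyr and Tyrp1), against 15.9% of all genes. As with the CREB targets, such sites are part of why genes are known as MITF targets. Of the 5 targets named for the motif, Dct (1.37) and Trpm1 (1.33) were called higher, and Tyrp1 (ratio just below the limit), Tyr (0.971) and Slc24a5 (0.899) were called neither. Mc1r, whose promoter also holds it, was called lower.

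**Figure D5:**
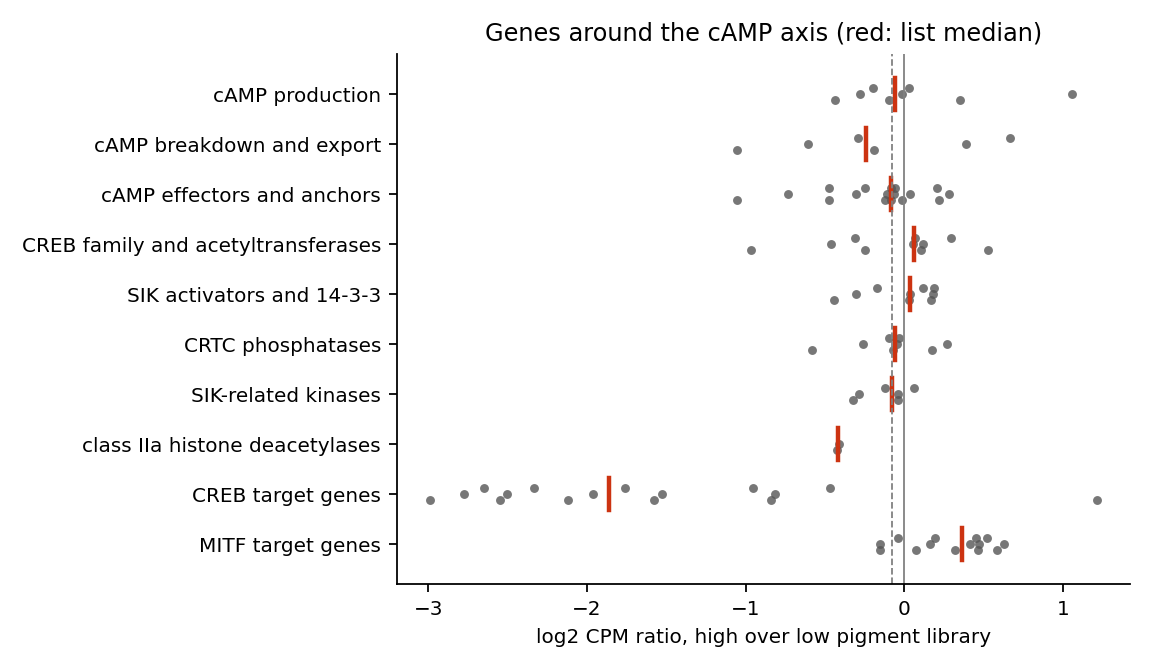
Log2 CPM ratio of the high over the low pigment library for each measured gene (grey points) of 10 lists around the cAMP route, with list medians in red, a solid line at 0 and a dashed line at the median of all measured genes (−0.08). CREB target genes spread to the left with a median of −1.86 and Ppargc1a alone on the right, and MITF target genes have a median of 0.37.

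Pecam1 and the early response genes were lower together with Sik1 in the high pigment library, and their part in its difference was not tested. All 11 early response genes used to order the cells were measured and lower, and the median of their log2 ratios was −2.51, from Junb, Ier2 and Atf3 (1.94-fold, 2.88-fold and 3.80-fold lower) to Jun, Fosb and Dusp1 (6.54-fold, 6.86-fold and 7.95-fold lower). In these data a change before the sort and one during trypsin treatment, sorting and loading cannot be told apart, since each library was 1 preparation.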

How the data were processed

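RNA was counted in single B16 F10 cells of 2 libraries. Per the file headers and the submitters' processing notes, the authors made the deposited UMI counts with Cell Ranger 6.1.2 on mm10; the sources used here do not state whether their aggregation equalised depth or what was done with reads of more than 1 gene. The authors' deposited cell table gave each cell's sort, phase, cluster, UMI counts and percent of mitochondrial UMIs. Its 4036 cells of 5818 barcodes were, with 0 exceptions, the barcodes that reached 7500 UMIs and stayed under 10% mitochondrial UMIs. No other column was used for a sample.

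Counts were summed over cells per library or stratum and scaled to CPM. CPM have exact Poisson 95% intervals, ratios exact conditional binomial ones and shares of cells Clopper-Pearson ones, all for counting error only. They leave out cell-to-cell, culture and sort variation. A gene at 0 can still lie at up to 3 UMIs, which is 0.0925 CPM in low and 0.104 CPM in high pigment cells. UMIs tag 3' ends, so CPM were not divided by gene length. Strata under 50 cells were left out. Thinning drew 7500 UMIs per cell without replacement. Scrublet, in scanpy 1.11.5, marked 18 low and 15 high pigment cells as doublets, which were kept. TMM factors came from edgeR 4.0.16. The ratio, interval and call were tested on simulated data. Gene positions are from GENCODE M21 (mm10). All 9 members and Mitf are named, and from each list the 3 genes of largest and the 3 of smallest ratio, where it has them. The members and lists were chosen with earlier results of these data known. Alternatives covered scaling, depth, cell weight, cells kept, phase, the size limit and the CPM minimum. A few marker genes and genes of like pattern are not reported here.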

Additional observations from a re-analysis of the deposited data

Results flagged for a closer look

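Barcodes outside the authors' cell table, which no comparison above uses, also held RNA of the route, above the limit that a count of 0 allows. In the 1086 left-out barcodes of the low pigment library, Sik1 was at 89.7 CPM, Mc1r at 29.5 CPM and Crem at 37.6 CPM. In the 696 left-out barcodes of the high pigment library, Sik1 was at 39.5 CPM, Mc1r at 32 CPM and Crem at 61.1 CPM. These barcodes failed the filter on UMIs or mitochondrial share. Of the low pigment ones, 434 had over 50% mitochondrial UMIs and held 2 Sik1 UMIs in 425117. Among the other 652, Sik1 was at 106 CPM. In the high pigment library the left-out barcodes had a higher Sik1 level than the 20.6 CPM of the cells analysed, and in the low pigment library a lower one than 122 CPM.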

How the results depend on the processing

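Sik1 was lower, and Mitf higher, past the limit of a call in all 11 alternatives run for each. The Sik1 ratio, 0.169 over all cells, was 0.192 in thinned cells, 0.143 in cells of 10000 to 20000 UMIs, 0.185 with all barcodes, 0.193 in S and 0.146 in G2M. The Mitf ratio was 2.42 with the median gene set to 1, 2.49 with TMM factors, 2.0 in G1, 2.42 in S and 2.22 with the phases weighted equally. Mc1r was 0.867 in G2M, the only alternative in which it was not called lower; its other values ran from 0.642 to 0.758. No member called over all cells (Mc1r, Sik1 and Sik2) changed direction. With TMM factors, under which the median of all measured genes moved from −0.08 to 0.04, 2 members were called higher (Crem and Crtc3), against 0. In S 2 were (Crem and Sik3), and with equal phase weights 1 was (Crem). The count of lower members was 1 in G2M and 1 at a 1.5-fold limit (Sik1 in both), and 4 with a mean CPM of at least 2 or no minimum, which adds Crtc2. The cause of these shifts was not tested. Creb1 ran from 0.887 to 1.14 and Sik3 from 0.987 to 1.30 across alternatives. With 1 library per group no replicate could be left out. No paired analysis was possible because each group has 1 library and no test was made. At 133 to 256 UMIs, Crtc1 and Crtc2 cannot show small differences.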
